A study of Mus musculus with 15 samples.

Results

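The BCL2 family, which sets whether a stressed cell lives or dies, was followed through 10 of its genes across the 4 groups of the series. The rule that picked them lists genes by name, but the members were chosen with earlier results of these data known. The guardians among them are Bcl2, Bcl2l1 (encoding BCL-XL), Bcl2l2 (BCL-W) and Mcl1, and the effectors among them are Bax and Bak1. The BH3-only genes among them are Bcl2l11 (BIM), Bbc3 (PUMA), Pmaip1 (NOXA) and Bid. Each of the 10 genes was found once by its Ensembl identifier, so these members make up 10 of the 56980 genes in the deposited table. Other genes of the family, such as Bcl2a1b, Bok, Bad, Bik and Bmf, are read below with the rest of the pathway. Shares of the family given here are therefore shares of these 10. RNA came from snap-frozen tibialis anterior (TA) muscles and hearts of mice with the genotype DBA/2J-mdx, a dystrophin-deficient strain used as a model of Duchenne muscular dystrophy, and every mouse in the comparison carried that genotype, vehicle groups included. TA muscles were from mice treated from the age of 3 to 5 months, that is for 2 months, with dasatinib and quercetin (D+Q, n = 4) or with vehicle (n = 4). Hearts were from mice treated from the age of 12 to 16 months, that is for 4 months, with D+Q (n = 3) or vehicle (n = 4). Dosing was 2 times a week throughout. There was no dystrophin-sufficient group, and tissue, age and length of treatment changed together, so these 3 cannot be told apart when TA is set against heart.

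Guardians bind and hold back the effectors at the outer mitochondrial membrane. When released, BAX and BAK assemble into pores that let cytochrome c out, which leads to caspase activation. BH3-only proteins tip the balance, either by occupying the guardians or by activating the effectors directly. Many senescent cells resist apoptosis, and the guardians are the proteins that some senolytic drugs bind. Dasatinib is a tyrosine kinase inhibitor and quercetin a plant flavonol, a pair given to remove senescent cells, so the comparison asks what the transcripts of this machinery did under that treatment. In whole tissue, fewer cells of a type and less RNA per cell cannot be told apart.

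A part of the sequence that these members share, and through which guardians grip effectors and BH3-only proteins, is the BH3 core. It was searched in the canonical GENCODE M39 transcripts (GRCm39) as leucine or methionine, 3 residues of any kind, glycine or alanine, and aspartate. All 10 members held it, as did 27.9% of 21483 canonical coding transcripts, so the pattern is short and a match alone is only a description. In the 9 members shown the pattern occurred once. A stretch of 45 coding bases is printed 5′ to 3′ in the direction of the transcript, with the 18 bases of the core in capitals. Only these 18 bases were compared between members.
Bcl2: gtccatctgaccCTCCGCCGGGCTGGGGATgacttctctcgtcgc
Bcl2l1: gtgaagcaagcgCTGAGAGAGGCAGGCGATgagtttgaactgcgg
Bcl2l2: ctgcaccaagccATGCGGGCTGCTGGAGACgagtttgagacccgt
Mcl1: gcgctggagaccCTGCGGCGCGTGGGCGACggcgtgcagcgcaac
Bax: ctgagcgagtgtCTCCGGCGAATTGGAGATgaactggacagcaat
Bak1: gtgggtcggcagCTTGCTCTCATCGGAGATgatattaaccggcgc
Bcl2l11: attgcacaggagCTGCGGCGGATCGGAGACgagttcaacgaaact
Bbc3: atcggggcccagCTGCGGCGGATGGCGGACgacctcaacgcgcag
Bid: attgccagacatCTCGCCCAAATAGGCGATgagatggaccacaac

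Over the 36 pairs of these cores, between 5 (Bcl2l2 and Bid) and 15 (Bcl2l11 and Bbc3) of the 18 bases were identical, with a median of 10. The pattern itself sets part of this identity, and no chance level was worked out. The core of Bak1, the member with the largest difference between the tissues of vehicle mice, lies in exon 4 on the minus strand of chromosome 17 (chr17:27241499-27241543), and that of Bcl2, which differed in the opposite direction, lies in exon 1 on the minus strand of chromosome 1 (chr1:106640299-106640343). Mcl1 carries its core in exon 1 on the plus strand (chr3:95566735-95566779). Values in the table are sums over all transcripts of a gene, so splice forms with opposed activities, such as the long and short forms of Bcl2l1, are not separated.

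Levels are given as TPM, the authors' estimate of relative transcript abundance, which is corrected for transcript length and so allows levels to be compared between genes. Every library is scaled to the same total, so read depth is unknown and all precision comes from the spread between mice. Tissue markers followed the labels: 5 skeletal myofibre genes summed to between 34503 and 43233 TPM in TA and at most 1782 TPM in heart, and 4 cardiomyocyte genes summed to at least 13641 TPM in heart and at most 116 TPM in TA. Sex-specific transcripts went with the label in 14 of 15 libraries. The exception was heart D+Q replicate 3, labelled male, with Xist at 47.2 TPM and no Y-linked gene above 0.028 TPM. The fitted values of the members that include D+Q hearts are therefore also given without it. So are the D+Q against vehicle heart values of the other pathway genes named. A list of 4 atrial muscle genes summed to 382 to 427 TPM in D+Q hearts and to 862 to 4260 TPM in vehicle hearts. Nppa alone had 373 to 421 TPM in D+Q hearts. Myl7, Myl4 and Sln were at most 4.54, 4.62 and 0.416 TPM in D+Q hearts. In vehicle hearts these genes were at least 94.1, 72.0 and 7.86 TPM. Red-cell genes, 5 in number, summed to 26.8 to 122 TPM in D+Q hearts and to 346 to 1231 TPM in vehicle hearts. The part of these differences in the values of D+Q hearts was not tested. Heart D+Q replicate 2 held traces of skeletal genes, with Tnnt3 at 21.5 TPM. All 4 D+Q TA muscles came from males, whereas vehicle TA came from 2 males and 2 females. All 3 D+Q hearts read as female by expression, although 1 was labelled male, whereas vehicle hearts came from 2 males and 2 females. By expression, the D+Q mice were thus all male in TA and all female in heart, so sex went with tissue among them.

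Mcl1, which encodes a short-lived guardian on which heart muscle cells depend, was the most abundant member in all 15 mice. In TA its level was 130.9, 83.0, 67.3 and 96.2 TPM in the 4 D+Q muscles, in order of replicate number, and 84.0, 94.8, 90.3 and 76.0 TPM in the 4 vehicle muscles. In heart it was 68.6, 67.6 and 63.9 TPM after D+Q, and 67.4, 71.3, 68.2 and 63.0 TPM after vehicle. The D+Q TA muscles thus spread around the vehicle values, with the highest and the lowest of the 8 TA levels among them, and the hearts lay close together in both groups.

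Bcl2l1, the source of BCL-XL, was the next guardian by level. It stood at 23.9, 21.0, 16.9 and 21.3 TPM in D+Q TA and at 11.8, 18.8, 19.9 and 19.3 TPM in vehicle TA. In heart it stood at 19.9, 22.5 and 21.2 TPM after D+Q and at 20.3, 23.4, 28.9 and 17.4 TPM after vehicle. In TA, 3 of 4 D+Q levels were above every vehicle TA level, but replicate 3 lay among them, and in heart the vehicle values enclosed all 3 D+Q values.

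Bcl2l2, whose product BCL-W is a close relative of BCL-XL, lay in a narrow range in all 4 groups. Its mean was 11.8 ± 1.48 TPM (SD, n = 4) in D+Q TA, 12.7 ± 2.05 TPM (n = 4) in vehicle TA, 13.2 ± 1.34 TPM (n = 3) in D+Q heart and 12.9 ± 1.17 TPM (n = 4) in vehicle heart. All 15 values fell between 9.99 and 14.6 TPM.

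Bcl2, the founding guardian of the family, was the least abundant of the 4. Its level in TA was 3.39, 5.61, 3.75 and 3.76 TPM after D+Q and 3.79, 4.23, 4.14 and 4.01 TPM after vehicle. In heart it was 7.52, 7.07 and 6.40 TPM after D+Q and 7.70, 6.47, 6.18 and 5.68 TPM after vehicle. Every heart was above every TA muscle, by a narrow margin of 5.68 against 5.61 TPM at the closest pair, while D+Q and vehicle overlapped within each tissue.

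**Figure D1:**
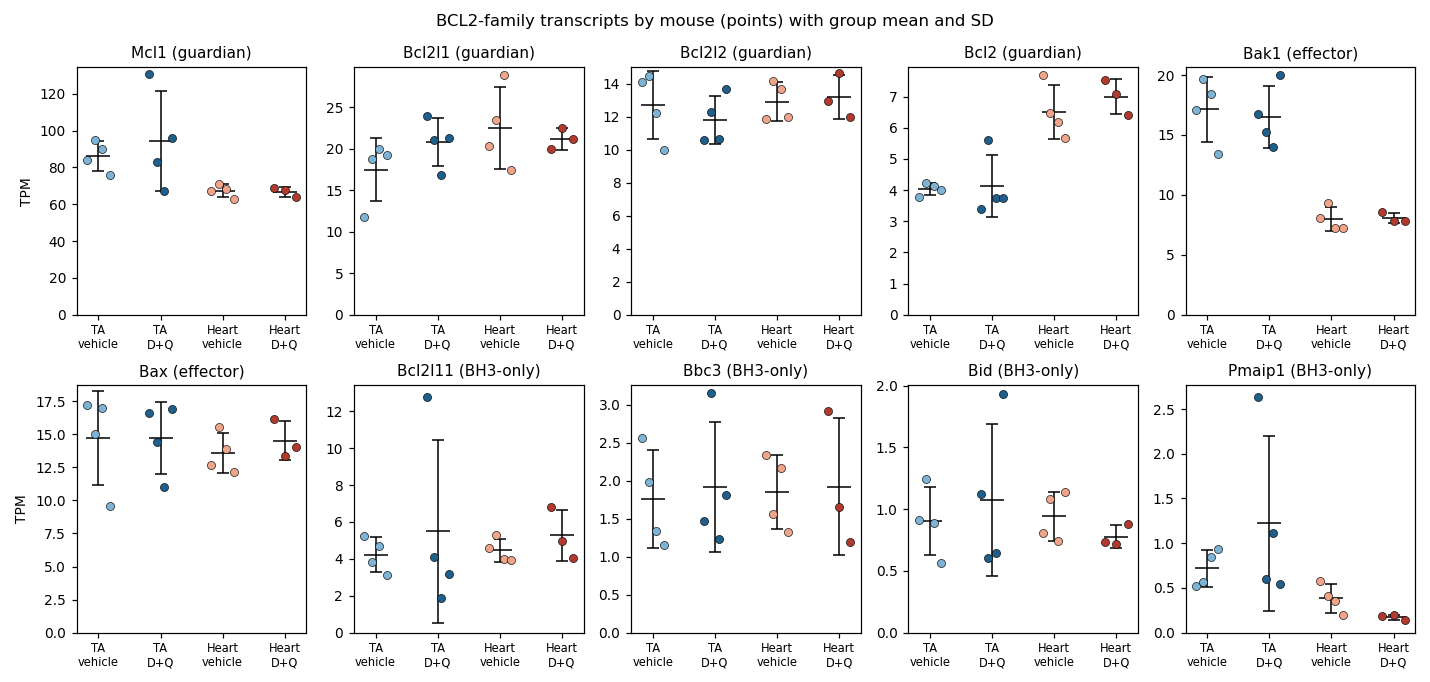
TPM (vertical axes, each starting at 0) of the 10 genes in each mouse of the 4 groups, with the group mean as a bar and the SD as the error bar. Bak1 separates TA from heart, with 13.4 TPM as the lowest TA value and 9.35 TPM as the highest heart value, Bcl2 separates them in the other direction, and D+Q and vehicle overlap within a tissue for every gene except Pmaip1 in heart.

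Of the effectors, Bak1 differed most between the tissues. TA muscles held 16.8, 15.2, 14.0 and 20.0 TPM after D+Q and 17.1, 19.7, 18.4 and 13.4 TPM after vehicle. Hearts held 8.57, 7.85 and 7.83 TPM after D+Q and 8.07, 9.35, 7.20 and 7.24 TPM after vehicle. No heart reached the lowest TA level, and within each tissue the treatment groups overlapped.

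Bax, the second effector, did not follow Bak1. It had 16.6, 14.4, 10.99 and 16.9 TPM in D+Q TA and 17.2, 15.04, 16.99 and 9.58 TPM in vehicle TA. It had 16.2, 13.3 and 14.0 TPM in D+Q heart and 12.7, 15.5, 13.9 and 12.1 TPM in vehicle heart. All 4 groups overlapped, and the mean lay between 13.6 TPM (vehicle heart, SD 1.501, n = 4) and 14.7 TPM (D+Q TA, SD 2.73, n = 4). As a result the ratio of Bak1 to Bax was between 0.994 and 1.40 in the 8 TA muscles and between 0.518 and 0.637 in the 7 hearts.

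The 4 BH3-only members made up the smallest share of the summed TPM of the 10 genes in every mouse. Bad, a death gene of the family outside the 10, averaged 7.23 TPM in D+Q TA and 8.20 TPM in vehicle TA. In heart it averaged 9.91 TPM after D+Q and 9.49 TPM after vehicle, so this share depends on the genes picked. Bcl2l11, which encodes BIM, a protein able to bind all guardians and to activate the effectors, stood at 12.8, 4.08, 1.89 and 3.20 TPM in D+Q TA and at 5.26, 3.84, 4.69 and 3.13 TPM in vehicle TA. In heart it stood at 6.79, 4.99 and 4.06 TPM after D+Q and at 4.58, 5.28, 4.01 and 3.96 TPM after vehicle. D+Q TA replicate 1 was the highest of all 15 mice and D+Q TA replicate 3 the lowest.

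Bbc3, the source of PUMA and a target of p53, ranged from 1.24 to 3.15 TPM in D+Q TA, from 1.15 to 2.56 TPM in vehicle TA, from 1.19 to 2.92 TPM in D+Q heart and from 1.32 to 2.34 TPM in vehicle heart. Bid, whose protein is cut by caspase-8 and so links death receptors to mitochondria, ranged from 0.608 to 1.93 TPM, from 0.567 to 1.24 TPM, from 0.719 to 0.881 TPM and from 0.743 to 1.13 TPM in the same order. Neither gene separated any pair of groups.

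Pmaip1, whose product NOXA mainly neutralises MCL1, was near the lower limit of the table. It stood at 2.64, 0.605, 1.11 and 0.541 TPM in D+Q TA and at 0.519, 0.568, 0.843 and 0.940 TPM in vehicle TA. In heart it stood at 0.184, 0.195 and 0.137 TPM after D+Q and at 0.578, 0.407, 0.349 and 0.196 TPM after vehicle. The 2 heart groups did not overlap, by a margin of 0.195 against 0.196 TPM, but only 1 of 7 hearts reached 0.5 TPM, so the gene failed the filter on low values in heart and has no test there.

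The order of levels from Mcl1 down was partly shared. Mcl1 ranked above Bcl2l1 in all mice of every group, with means of 94.3 and 20.8 TPM in D+Q TA, 86.3 and 17.5 TPM in vehicle TA, 66.7 and 21.2 TPM in D+Q heart and 67.5 and 22.5 TPM in vehicle heart. In both TA groups Bak1 came next, then Bax and then Bcl2l2, and each of these neighbours overlapped with the one before it. In both heart groups Bax and then Bcl2l2 followed Bcl2l1, these last overlapped, and Bak1 came after them, below Bcl2l2 without overlap. Bcl2l11 ranked above Bcl2 by mean in TA, with overlap, and below it in heart. Pmaip1 and Bid closed the order in every group.

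The 4 guardians together supplied most of the summed TPM of the 10 genes. They made up 76.2 ± 0.689% of the summed TPM of the 10 genes in D+Q TA (SD, n = 4), 75.4 ± 2.86% in vehicle TA (n = 4), 77.9 ± 2.11% in D+Q heart (n = 3) and 79.0 ± 1.17% in vehicle heart (n = 4). Mcl1 alone made up between 51.9 and 59.5% in the 8 TA muscles and between 46.9 and 50.8% in the 7 hearts, ranges that did not overlap. The effectors supplied between 15.2 and 21.8% in TA and between 14.5 and 17.1% in heart, and the BH3-only genes between 3.80 and 8.18% and between 4.76 and 7.36%. The summed level was between 128 and 220 TPM in TA and between 124 and 149 TPM in heart.

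**Figure D2:**
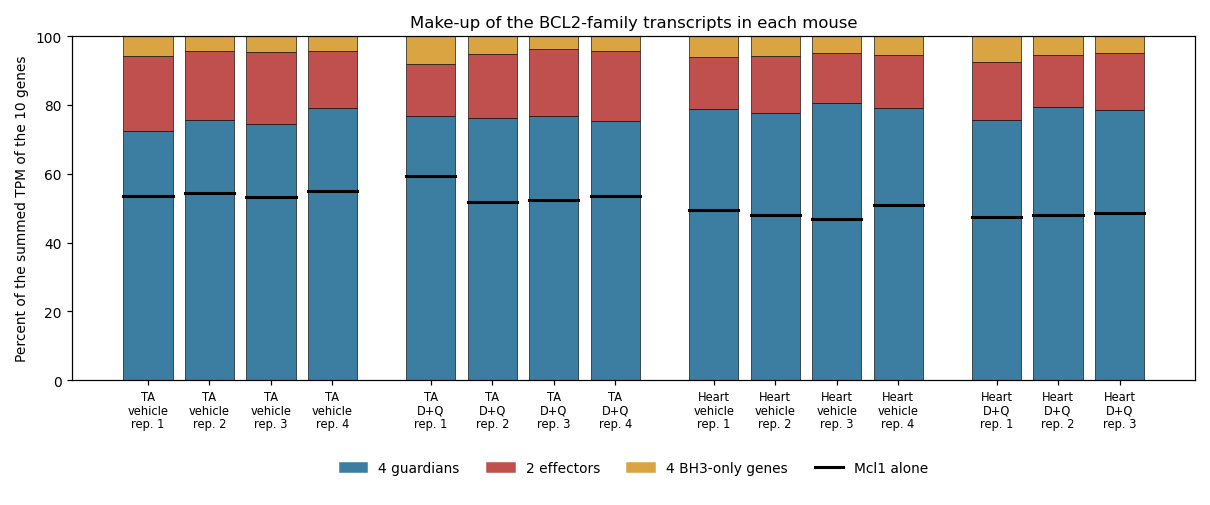
Percent of the summed TPM of the 10 genes (vertical axis) taken by the 4 guardians, 2 effectors and 4 BH3-only genes in each of the 15 mice, with a black line at the share of Mcl1 alone. The guardians take between 72.3 and 80.5% in every mouse, and the Mcl1 line lies at 51.9% or more in TA and at 50.8% or less in heart.

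The first comparison asked whether D+Q changed these genes in TA of young dystrophic mice. All 10 genes were tested with limma on log2(TPM + 0.5), among the 16298 genes that reached 0.5 TPM in 3 or more TA mice, with 1 surrogate variable in the model. A call needed a Benjamini-Hochberg adjusted p under 0.05 together with a log2 fold change beyond 0.5 in either direction. None of the 10 members was called, and none of the 16298 genes was either (0%). The paper's DESeq2 test of counts, at the same thresholds, called genes in both directions in TA and in heart. The absence of calls with TPM here therefore does not show that TA did not respond. At an unadjusted p under 0.05, limma passed 0 of 10 members and 488 of 16298 genes. No member had D+Q and vehicle TA groups without overlap, against 1.52% of all genes tested.

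The fold changes of the guardians in TA were 0.20 for Bcl2l1 (95% interval -0.20 to 0.60), 0.042 for Bcl2 (-0.37 to 0.45), -0.038 for Mcl1 (-0.31 to 0.24) and -0.10 for Bcl2l2 (-0.48 to 0.27), all on the log2(TPM + 0.5) scale. Those of the effectors were -0.094 for Bax (-0.49 to 0.30) and -0.11 for Bak1 (-0.46 to 0.24). Intervals of the BH3-only genes were wider, with 0.24 for Pmaip1 (-0.47 to 0.95), 0.10 for Bbc3 (-0.55 to 0.76), 0.0087 for Bid (-0.60 to 0.61) and -0.26 for Bcl2l11 (-0.88 to 0.36). The median over the 10 members was -0.015, and over all genes tested it was -0.072. With 8 mice, changes within these intervals could not be told from 0.

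The surrogate variable moved with single mice. It stood at 0.70 in D+Q TA replicate 1 and between -0.42 and 0.30 in the other 7 TA mice, and that mouse had the highest TA level of Bcl2l1, Mcl1, Bcl2l11 and Pmaip1. For Mcl1 and Bcl2l11 the mean TPM of the D+Q group was above that of the vehicle group (94.3 against 86.3 TPM and 5.49 against 4.23 TPM), whereas the fitted fold changes were below 0. Without the surrogate variable they were 0.090 and 0.048. Vehicle TA replicate 4 had the lowest TA level of 5 members, Bcl2l2, Bax, Bak1, Bbc3 and Bid.

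**Figure D3:**
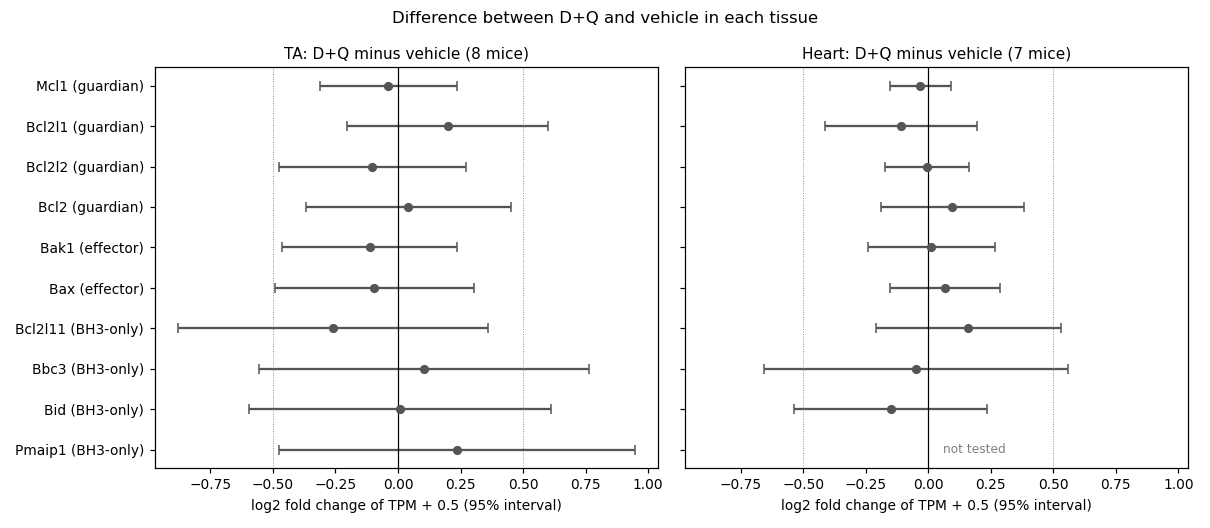
Log2 fold change of D+Q over vehicle (horizontal axis, TPM + 0.5) with its 95% interval for the 10 genes in TA (left, 8 mice) and heart (right, 7 mice), with dotted lines at the fold threshold of 0.5. Every interval includes 0, Pmaip1 has no test in heart, and the heart intervals of the 4 guardians and 2 effectors all lie within -0.41 and 0.38.

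The second comparison asked the same of the heart in old dystrophic mice, with labelled sex in the model. Of the 9 members tested, limma called none, against 0.316% of 16132 genes, and it passed 0 of 9 members and 2846 of 16132 genes at an unadjusted p under 0.05. None of the 9 had groups without overlap, against 15.2% of all genes tested.

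Among the guardians of the heart the fold change was 0.097 for Bcl2 (95% interval -0.19 to 0.38), -0.0046 for Bcl2l2 (-0.17 to 0.16), -0.031 for Mcl1 (-0.15 to 0.091) and -0.11 for Bcl2l1 (-0.41 to 0.19). The effectors had 0.068 for Bax (-0.15 to 0.29) and 0.012 for Bak1 (-0.24 to 0.27). The BH3-only genes had 0.16 for Bcl2l11 (-0.21 to 0.53), -0.048 for Bbc3 (-0.65 to 0.56) and -0.15 for Bid (-0.54 to 0.24). The interval of Mcl1 was the narrowest of the 9. The members' median was -0.0046, and that of all genes tested was -0.0025.

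Without heart D+Q replicate 3, the library whose sex label and expression differed, limma again called none of the members, and the calls among all genes went from 51 to 5. The values then ran from -0.29 for Bcl2l1 to 0.31 for Bcl2l11, with 0.19 for Bcl2, 0.21 for Bbc3 and -0.20 for Bid, and -0.034 for Mcl1, -0.013 for Bcl2l2, -0.0014 for Bak1 and -0.00055 for Bax. Bax, Bak1 and Bbc3 changed sign against the fit with all 7 hearts, each within its standard error of 0.

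A test of whether the treatment difference itself differed between TA and heart was run over all 15 mice. None of the 10 members was called, against 0.0685% of 17516 genes, and limma passed 0 of 10 members and 738 of 17516 genes at an unadjusted p under 0.05. The largest differences, TA minus heart, were 0.79 for Pmaip1 (95% interval -0.20 to 1.78) and 0.52 for Bcl2l1 (-0.021 to 1.05). Pmaip1 failed the filter in heart and entered this fit through TA, where it is high, so its value carries no weight. For Bcl2l1 the D+Q mean was above vehicle in TA (20.8 against 17.5 TPM) and below it in heart (21.2 against 22.5 TPM), and the interval of the difference included 0. Without heart D+Q replicate 3 the values ran from -0.49 for Bcl2l11 to 0.76 for Pmaip1, with 0.71 for Bcl2l1, and none was called. With all mice the median over the members was 0.033, against -0.011 over all genes.

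Between the tissues, some members were called. In the same fit, vehicle TA was set against vehicle heart. The median of all 17516 genes was shifted by 0.16 on the log2 scale towards TA, so a member at that value is level with the typical gene. Bak1 was higher in TA by 1.05 (SE 0.14, limma adjusted p = 3e-05), which is 2.08-fold on the log2(TPM + 0.5) scale. Bcl2 was lower in TA, with a fold change of -0.62 (SE 0.15, adjusted p = 0.0031). These were the only members called, 1 of 10 higher in TA, against 23% of all genes tested, and 1 of 10 higher in heart, against 14.5%. Groups did not overlap for 3 of 10 members, Bcl2, Mcl1 and Bak1, against 41.7% of all genes.

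The other vehicle values fell short of the thresholds. Mcl1 had 0.35 (95% interval 0.017 to 0.68, adjusted p = 0.081) and Bcl2l1 had -0.36 (-0.70 to -0.023, adjusted p = 0.076). Pmaip1 had 0.47 (-0.16 to 1.09), Bax 0.084 (-0.30 to 0.47), Bcl2l2 -0.034 (-0.31 to 0.25), Bid -0.052, Bbc3 -0.078 and Bcl2l11 -0.082, with adjusted p-values of at least 0.21. When TPM values were rescaled by median-of-ratios factors, which removes the shift of the median, Bcl2l1 was called too, with -0.56 (adjusted p = 0.016), and Bax turned to -0.11. The same rescaling changed the split of all genes from 4031 higher and 2544 lower in TA to 2877 and 3338. Bak1 and Bcl2 were called with and without rescaling, at 0.86 and -0.80 with it. The members' median was -0.043, below the 0.16 of all genes.

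After D+Q, Bak1 was again higher in TA, by 0.98 (SE 0.17, adjusted p = 0.00046), and Bcl2 again lower, at -0.69 (SE 0.18, adjusted p = 0.0069). Pmaip1 was higher in TA by 1.25 (SE 0.36, adjusted p = 0.012), but no D+Q heart and only 1 vehicle heart reached 0.5 TPM, so the gene entered this test through TA, where it is high, and its call carries no weight as support. These mice are other animals than the vehicle mice. With Pmaip1 counted, that made 2 of 10 members higher in TA, against 22% of all genes tested, and 1 of 10 higher in heart, against 13.6%, and the groups did not overlap for these 3 of 10, against 47.5%. Mcl1 had 0.49 (adjusted p = 0.056) and, without D+Q TA replicate 3, 0.63 (adjusted p = 0.0064), which is past both thresholds. The other 6 members were not called, with 0.18 for Bid, 0.15 for Bcl2l1, 0.069 for Bbc3, -0.047 for Bax, -0.10 for Bcl2l2 and -0.25 for Bcl2l11 and adjusted p-values of at least 0.57. The members' median was 0.11, and that of all genes was 0.16.

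Without heart D+Q replicate 3, Bak1 and Bcl2 kept their calls in the D+Q comparison, at 0.94 (adjusted p = 0.0093) and -0.78 (adjusted p = 0.028). Pmaip1 did not, at 1.22 (adjusted p = 0.078), and Bbc3 turned from 0.069 to -0.32. The other members were not called, with 0.45 for Mcl1, 0.34 for Bcl2l1, 0.24 for Bid, -0.14 for Bax, -0.18 for Bcl2l2 and -0.57 for Bcl2l11. The Pmaip1 value also rests on low levels, at most 0.195 TPM in D+Q hearts, and went from 2.13 with a pseudocount of 0.1 to 0.86 with a pseudocount of 1, while its value in vehicle mice went from 0.79 to 0.31. It rests too on D+Q TA replicate 1 at 2.64 TPM. Without that TA mouse it was 0.92 (adjusted p = 0.010).

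**Figure D4:**
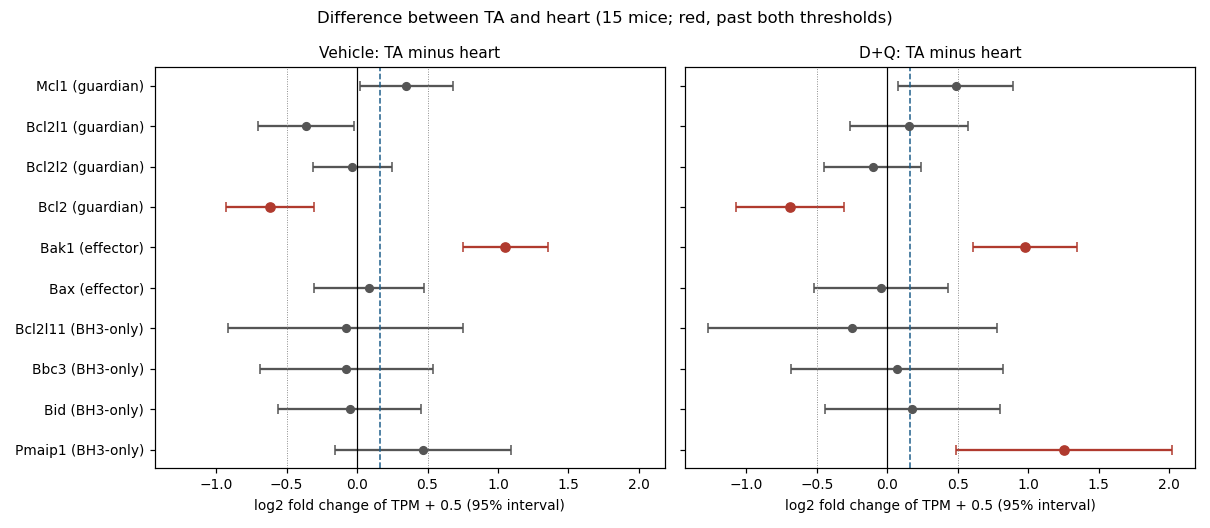
Log2 fold change of TA over heart (horizontal axis, TPM + 0.5) with its 95% interval in vehicle (left) and D+Q (right) mice, with the median of all genes as a dashed line at 0.16 and members past both thresholds in red. Bak1 lies near 1 and Bcl2 near -0.6 to -0.7 in both panels. Pmaip1 is past the thresholds in the D+Q panel, but it entered the test through TA, where it is high, so its call carries no weight. The test of the treatment difference between tissues did not call Pmaip1, but the gene entered that test in the same way.

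Some markers of other cells differed between the tissues. Among 8 leukocyte markers, 5 (Ptprc, Cd68, Adgre1, Itgam and Csf1r) were higher in vehicle TA than in vehicle heart, against 23% of all genes tested. The T cell gene Cd3e, 1 of the 8, was lower, against 14.5% of all genes, and none was at 0 in any library. Cd3e was at most 0.377 TPM in every TA muscle, so it entered the test through heart, where it is high. Its call carries no weight as support. The summed level of the 8 markers was between 79.0 and 158 TPM in vehicle TA and between 88.5 and 172 TPM in D+Q TA. In heart it was between 48.7 and 95.7 TPM after vehicle and between 43.3 and 77.2 TPM after D+Q. The fibroblast genes Col1a1 and Col3a1 were higher in TA, and the fibroblast genes Pdgfra and Dpt were not called. Dpt averaged 54.4 TPM in vehicle TA and 63.4 TPM in vehicle heart, and Pdgfra 24.2 and 17.2 TPM. The 4 fibroblast genes summed to between 748 and 1104 TPM in vehicle TA and between 163 and 225 TPM in vehicle heart. Most of the TA sum came from Col1a1 and Col3a1, with means of 331 and 496 TPM. The endothelial gene Kdr was lower in TA, and the other 3 endothelial genes were not called. The 4 endothelial genes summed to between 114 and 170 TPM in vehicle TA and between 161 and 179 TPM in vehicle heart. The part of these cells in the tissue differences of Bak1, Bcl2 and Pmaip1 was not tested.

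Overlapping annotation touches Bak1 in particular. Ggnbp1 runs over its first exon on the opposite strand, and whether quantification used strand is not given in the sources used here. Ggnbp1 had between 5.09 and 9.47 TPM in TA and between 7.68 and 11.3 TPM in heart. Gm50253, also on the opposite strand, had between 1.64 and 3.48 TPM in TA and between 2.61 and 3.49 TPM in heart. The part of these genes in the Bak1 difference was not tested. Bid overlaps Bcl2l13 on the opposite strand, which had between 14.2 and 39.7 TPM, well above the 1.93 TPM that Bid reached at most.

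The rest of the pathway was read from 46 genes in 8 lists by role. Bcl2a1d, Bcl2l10, Hrk, Fasl and Trp73 failed the filter in both tissues, and Bcl2a1a failed it in heart. In TA, limma called 0 of 41 genes after D+Q, with 2 at an unadjusted p under 0.05, against 0% of all genes called and 488 of 16298 at that p. In heart it called 0 of 40, with 10 at that p, against 0.316% called and 2846 of 16132. Their median was -0.053 in TA, against -0.072 for all genes, and 0.045 in heart, against -0.0025.

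In TA the genes nearest to a change were Bcl2a1a, a survival gene of haematopoietic cells, at -0.81, and Atf4, a stress-response transcription factor that can induce BH3-only genes, at 0.31. Their limma p-values were 0.0046 and 0.050 before adjustment, and both had an adjusted p of 1.00. Bcl2a1a has near-identical copies, so reads may be split between them, and its sister Bcl2a1b had -0.070. The values with the smallest p in the other lists ran from -0.20 for Casp8 to 0.20 for Bcl2l13, with Bad at -0.18, Cflar at -0.18, Ddit3 at -0.16, Birc6 and Xiap at -0.13, Bmf and Cycs at -0.073 and 0.073, Vdac2 at 0.11, Bnip3 at 0.15, Endog at 0.16 and Vdac3 at 0.19. D+Q and vehicle overlapped for each of these genes.

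In heart Cdkn1a, the p53 target that encodes the cell cycle inhibitor p21, stood at 21.3, 26.04 and 26.1 TPM after D+Q and at 8.13, 8.66, 18.5 and 8.66 TPM after vehicle. Its fold change was 1.15 (SE 0.26, adjusted p = 0.11), so the 2 groups did not overlap and yet the gene was not called. It was called only when vehicle replicate 3, the mouse at 18.5 TPM, was left out, and without heart D+Q replicate 3 its fold change was 0.87. Ddit3, a stress factor that can raise Bcl2l11 and Bbc3, had -0.44 (adjusted p = 0.11), and these inducible members had 0.16 and -0.048. Without heart D+Q replicate 3, Ddit3 had -0.38.

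The mitochondrial genes of the list had the same limit. Aifm1, which encodes the apoptosis-inducing factor, had 0.30, Bnip3 and Bnip3l, whose products mark mitochondria for removal, had 0.35 and -0.54, and the outer membrane channels Vdac3 and Vdac1 had 0.24 and 0.18, with adjusted p-values between 0.10 and 0.20. Cycs, the cytochrome c gene, had 0.21 (adjusted p = 0.20), with D+Q hearts above vehicle hearts. Without heart D+Q replicate 3 these values were 0.31 for Aifm1, 0.29 for Bnip3, -0.56 for Bnip3l, 0.25 for Vdac3, 0.19 for Vdac1 and 0.19 for Cycs. All 3 VDAC genes had D+Q hearts above vehicle hearts without overlap, and 4 cardiomyocyte markers did as well, with a median of 0.27. The heart groups did not overlap for 8 of the 40 pathway genes tested, against 15.2% of all genes tested. The red-cell list had a median of -3.06 in the same contrast, beside the negative value of Bnip3l, which is also known for clearing mitochondria from maturing red cells. The part of these cell types in the VDAC and Bnip3l values was not tested. In the other lists the smallest p-values belonged to Bik (0.45), Bok (-0.38), Bcl2a1b (0.28), Casp8 (0.22), Tnfrsf10b (-0.31), Htra2 (0.15) and Diablo (0.14), with adjusted p-values of at least 0.35, and each of these overlapped. Without heart D+Q replicate 3, Bik and Bok had 0.66 and -0.66, Bcl2a1b 0.49, Casp8 0.37, Tnfrsf10b -0.13, Htra2 0.071 and Diablo 0.21.

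Between vehicle TA and vehicle heart, 8 of 41 genes were higher in TA, against 23% of all genes, and 3 lower, against 14.5%, with a median of 0.16, as for all genes. The survival genes Bcl2a1a (1.32, adjusted p = 0.0026) and Bcl2a1b (1.51, adjusted p = 0.00068) were higher in TA, together with 5 of the 8 leukocyte markers above. Bcl2a1a was at most 0.454 TPM in every heart, so it entered the test through TA, where it is high. Higher too were Cdkn1a (2.46), Atf4 (1.29), Casp8 (0.77), the caspase that death receptors activate, Vdac1 (0.73), Vdac3 (0.68) and Foxo1 (0.54). Lower were Casp6 (-0.89), Fadd, the death receptor adaptor (-0.78), and Foxo3 (-0.71), all with adjusted p-values of at most 0.0403. With median-of-ratios rescaling the split was 6 higher and 6 lower, Foxo1 and Vdac3 were no longer called, and Bik, Casp9 and Aifm1 joined the lower genes. No gene of the IAP list, whose products block caspases, was called, with Birc6 at 0.47 (adjusted p = 0.00032) and Birc3 at 0.57 (adjusted p = 0.10). Fundc1 (0.45), Bcl2l13 (0.35), Aifm1 (-0.43), Bik (-0.63) and Bmf (0.66) were not called either.

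After D+Q, 7 of 41 genes were higher in TA, against 22% of all genes, and 4 lower, against 13.6%. Cdkn1a (1.68), Atf4 (1.65), Bcl2a1b (1.25), Foxo1 (1.04), Vdac3 (0.58), Vdac1 (0.57) and Bnip3l (0.54) were higher. Bik, a BH3-only gene (-1.18), Fadd (-0.91), Casp6 (-0.88) and Aifm1 (-0.71) were lower, and the median was 0.34, against 0.16 for all genes. Bcl2a1a (0.58), Fundc1 (0.47), Birc6 (0.43), Birc3 (0.69), Ripk1 (1.19) and Bad (-0.43) were not called. Rescaling gave 4 higher and 6 lower, without Bnip3l, Vdac1 and Vdac3 among the higher. Without heart D+Q replicate 3 there were 4 higher and 3 lower, and Bcl2a1b, Bnip3l, Vdac3 and Casp6 were no longer called. The test of the treatment difference between tissues called none of the 41, with 0 at an unadjusted p under 0.05.

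**Figure D5:**
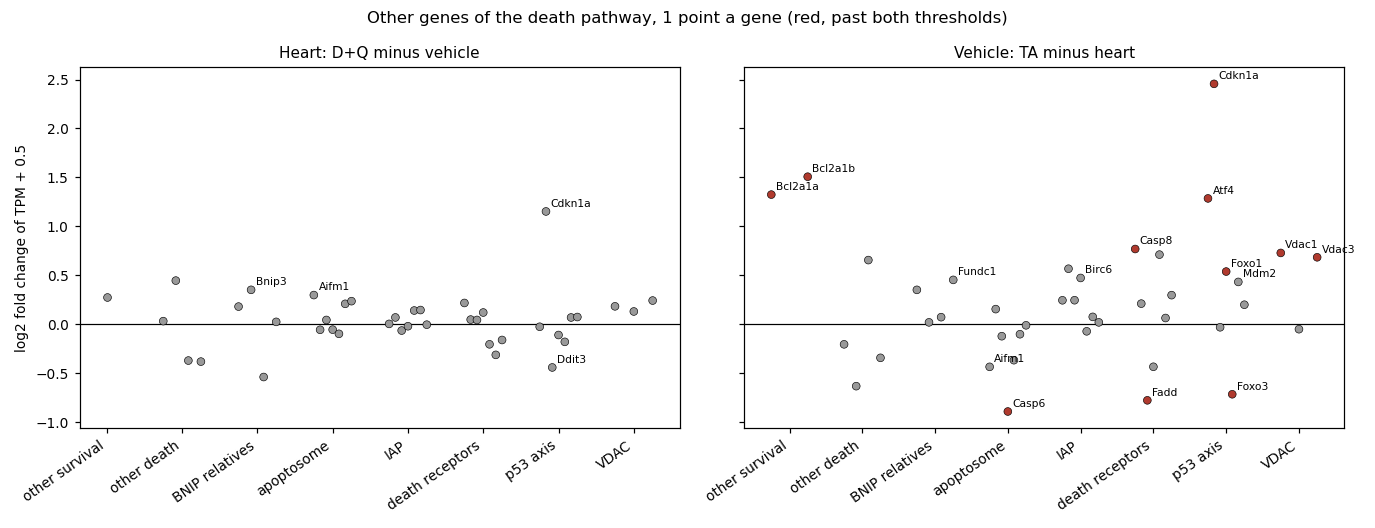
Log2 fold change (vertical axis, TPM + 0.5) of the other pathway genes by role list, 1 point a gene, for D+Q against vehicle in heart (left) and TA against heart in vehicle mice (right), with genes past both thresholds in red. No gene is red on the left, where Cdkn1a stands apart at 1.15, and 11 of 41 are red on the right.

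The genes whose spread within groups was most like that of 5 members were taken by Pearson correlation of deviations from the 4 group means over 15 libraries, among 14914 genes tested in both tissues. Mcl1 went with Ppp1r18 (r = 0.98) and Zfp281 (0.97), Bcl2l2 with Amigo1 (0.97) and Smad4 (0.96), Bax with 2900026A02Rik (0.96) and Nol11 (0.95), Bcl2l1 with Kcnk6 (0.91) and Ak4 (0.85), and Bcl2 with Mtss2 (0.84) and Sec61g-ps2 (0.82). These are the highest of 14914 values from libraries scaled to 1 total, so they are a description of these mice only. Mcl1 spread mainly in D+Q TA, with an SD of 27.1 TPM, against 8.15 TPM in vehicle TA. Its SD was 2.48 TPM in D+Q heart and 3.41 TPM in vehicle heart, so its r values rest mostly on the D+Q TA muscles.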

How the data were processed

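The authors trimmed reads with Trim Galore 0.6.10, quantified them with Salmon 1.10.3 against GRCm39, summarised them per gene and deposited TPM for 56980 genes in 15 libraries. The annotation release is not given in the sources used here. Symbols came from GENCODE M39, which held 56236 of the identifiers. Each library sums to 1000000 TPM, so depth is unknown.

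A gene entered a fit when 3 or more mice of a tissue reached 0.5 TPM. Values of log2(TPM + 0.5) were fitted with limma 3.58.1 (lmFit, eBayes with trend) in R 4.3.3, with 1 surrogate variable (5 rounds of re-weighting) in TA, labelled sex in heart, and group means plus labelled sex over all 15 mice for the tissue contrasts and the interaction. p-values were adjusted by Benjamini-Hochberg over all genes tested. The fold scale understates changes of low genes. The code was tested on simulated data.

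The members and gene lists were chosen with earlier results of these data known. Other pathway genes are named where they were called or had 1 of the 2 smallest p-values of their list in a comparison. Some pathway genes were left out of the lists. Replicate numbers were treated as names only. Same-numbered mice did not deviate together, but 3 or 4 pairs in a comparison cannot exclude a link between them. No 2 libraries were identical, and each label names a separate mouse sample. Alternatives were other pseudocounts, filters, covariates, rescaling, a replicate block and leaving out each mouse.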

Additional observations from a re-analysis of the deposited data

Results flagged for a closer look

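Of 30 groups of 4 mice, 2 held a level that stood far from the other 3 by Dixon's criterion, which marks about 1 in 20 groups by chance. Bcl2 in D+Q TA replicate 2 was at 5.61 TPM, with the next highest at 3.76 TPM. Without that mouse the Bcl2 fold change in TA went from 0.042 to -0.12, and Bcl2 was still called in D+Q TA against D+Q heart. Bcl2l1 in vehicle TA replicate 1 was at 11.8 TPM, with the next lowest at 18.8 TPM. Without that mouse the Bcl2l1 fold change in TA went from 0.20 to 0.036. The cause of either value was not tested.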

How the results depend on the processing

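The count of members called was 0 under every alternative run for both treatment comparisons and for the treatment difference between tissues. It was 2 to 3 for vehicle TA against vehicle heart and 2 to 4 for D+Q TA against D+Q heart, and Bak1 and Bcl2 were called in both under every alternative. With a filter of 1 TPM, Pmaip1 was not tested and 2 were called after D+Q. Rescaling by median-of-ratios factors gave -0.56 for Bcl2l1 in vehicle TA against heart, now called, and turned Mcl1 in TA to 0.016, Bax in vehicle TA against heart to -0.11, and Bcl2l1 and Bbc3 in D+Q TA against heart to -0.035 and -0.078. It also moved the split of all genes from 4031 higher and 2544 lower in vehicle TA to 2877 and 3338, and from 3854 and 2390 to 2970 and 3266 after D+Q.

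Some values changed sign, none of them called, among them Bcl2l11 in TA, which was -0.26 in the main fit. In TA these were Bid at a pseudocount of 0.1 (-0.0060), Mcl1 (0.072) and Bbc3 (-0.033) with labelled sex, and Mcl1 (0.090), Bax (0.018) and Bcl2l11 (0.048) both with no covariate and with a replicate block. In heart they were Bcl2l2 (0.030) and Bbc3 (0.0021) with no covariate, Bax (-0.022) and Bak1 (-0.022) with sex read from expression, and Bak1 (-0.015) with a replicate block. In D+Q TA against heart they were Bcl2l1 (-0.036) and Bax (0.0062) with no covariate and Bbc3 (-0.091) with sex read from expression. The replicate block left the counts of members called at 0, 0, 2, 3 and 0. The correlation of same-numbered mice was at most 0.053, so the block has no pairing behind it.

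Leaving out 1 mouse at a time gave these ranges for values that changed sign or side of the threshold. In TA they were -0.12 to 0.11 for Bcl2, -0.12 to 0.097 for Mcl1, -0.46 to 0.032 for Bcl2l11, -0.16 to 0.26 for Bbc3 and -0.18 to 0.14 for Bid. In heart they were -0.29 to 0.011 for Bcl2l1, -0.045 to 0.040 for Bcl2l2, -0.00055 to 0.15 for Bax, -0.073 to 0.10 for Bak1 and -0.28 to 0.21 for Bbc3. In vehicle TA against heart they were -0.11 to 0.10 for Bcl2l2, -0.20 to 0.052 for Bcl2l11, -0.28 to 0.097 for Bbc3 and -0.19 to 0.075 for Bid. In D+Q TA against heart they were 0.31 to 0.63 for Mcl1, -0.14 to 0.082 for Bax, -0.74 to 0.090 for Bcl2l11, -0.32 to 0.28 for Bbc3, 0.92 to 1.45 for Pmaip1 and -0.057 to 0.32 for Bid. Values that kept their sign but moved by over 1.5 times, none called, were Bcl2l1 (0.036 to 0.44), Pmaip1 (0.027 to 0.43), Bak1 (-0.19 to -0.037), Bax (-0.22 to -0.0047) and Bcl2l2 (-0.19 to -0.042) in TA, Bcl2 (0.045 to 0.19), Bcl2l11 (0.022 to 0.31), Bid (-0.23 to -0.050) and Mcl1 (-0.048 to -0.015) in heart, Bax (0.0027 to 0.28) and Bcl2l1 (-0.50 to -0.22) in vehicle TA against heart, and Bcl2l1 (0.081 to 0.34) and Bcl2l2 (-0.18 to -0.056) in D+Q TA against heart. The cause of these changes was not tested.

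Calls among all heart genes went from 17 higher and 34 lower to 3 and 22 with sex read from expression, to 2 and 11 with eBayes without trend, to 0 and 4 with a replicate block, and to 0 and 0 with no filter on low TPM. Leaving out 1 heart gave 0 to 136 calls, with 136 without vehicle replicate 3, 0 without vehicle replicate 2 and at most 21 without any other heart. The 12 calls of the treatment difference between tissues fell to 6 with no filter and to 4 with a replicate block, and leaving out 1 mouse gave 5 (heart D+Q replicate 3) to 14 (heart vehicle replicate 1). Depth is unknown, so no counting error can be given, and the lowest members, Pmaip1 and Bid, are the least certain.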
